A study of Mus musculus with 2 samples.

Results

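Cluster 0 is the larger of the 2 clusters into which the authors divided the oviduct epithelial cells of C57BL/6 mice at postnatal day 4 (P4). Its members were taken from the authors' own cluster table: 168 of the 263 cells of the P4 library (63.9%, exact 95% binomial interval 57.8 to 69.7), in a series of 669 distinct cells. The other 95 cells of that library form cluster 1, which served as the comparison. P4 and adult at estrus are each represented by 1 library. Tissue was digested with enzymes, cells were selected in a sort that used Epcam and CD45 antibodies, and droplet chemistry read the 3' end of transcripts. The labels name no genetic change or treatment in either group and do not say how many animals were pooled. The clusters were made from the expression of these same cells, so their differences are given as descriptions, without p-values, and intervals cover counting error only.

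The oviduct carries eggs and embryos from ovary to uterus, and is lined by secretory cells, which make its fluid, and by multiciliated cells, whose beating cilia drive the flow. A cell that becomes multiciliated leaves the cell cycle, switches on regulators such as Mcidas, Ccno, Myb and Foxj1, builds many centrioles with the help of Deup1, and then makes the axoneme, the moving core of each cilium. Signalling through Notch receptors is known to hold precursor cells back from that fate in several epithelia. Wt1 and the Hox genes are transcription factor genes that pattern the urogenital tract.

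Cluster 0 held 1460629 unique molecular identifiers (UMI), with 1344 to 23372 per cell (median 7856), and cluster 1 held 662573 (1331 to 16223, median 7029). A level below is the summed UMI of a gene per 10000 UMI of a group, so the floor of 3 counts lies at 0.0205 in cluster 0 and 0.0453 in cluster 1. All 12 genes of the list of general epithelial markers were measured and all lay within 2-fold between the clusters. Their summed level was lower in cluster 0, at 38.5 (37.5 to 39.5) against 46.9 (45.3 to 48.6), and 4 of the 12 had log2 folds above 0. Epcam, the epithelial adhesion gene of the sort, had a UMI in 139 cells of cluster 0 (82.7%) and 88 of cluster 1 (92.6%).

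In cluster 0, 7 cells were rich in markers of another cell type, and no cell of cluster 1 passed the same limits, which were set after the values were seen. A pair of them carried 58 and 16 UMI of leukocyte genes (Cd74 not counted), another pair 16 and 14 UMI of endothelial genes, and all 4 had no UMI of Epcam. The other 3 carried 42 and 67 UMI of smooth muscle genes or 40 and 72 UMI of fibroblast genes, with 4 to 6 UMI of Epcam each. Summed leukocyte markers stood at 1.33 (1.15 to 1.53, Cd74 counted) in cluster 0 and 0.423 (0.281 to 0.611) in cluster 1, with a UMI in 43 and 21 cells, while Ptprc, the gene of CD45, was at 0 in both. Smooth muscle markers stood at 4.20 and 3.44 (154 and 83 cells), endothelial markers at 0.609 and 0.589 (52 and 32 cells) and fibroblast markers at 8.52 and 8.42 (164 and 94 cells). Wolffian and mesonephric markers were lower in cluster 0, at 2.38 (2.14 to 2.65) against 4.72 (4.22 to 5.28), with a UMI in 125 and 85 cells. Of 3 measured, Calb1 alone was called (by the rule given below), and was lower. Mesothelial markers stood at 11.01 (10.5 to 11.6) against 13.7 (12.8 to 14.6), in 168 and 94 cells. Of 7 measured, Wt1 alone was called, and was higher. Erythroid markers had UMI in 1 cell of cluster 0, ovarian somatic and germ cell markers in 32 and 12 cells and neural and glial markers in 11 and 8. Col1a1, a fibroblast collagen gene, had a UMI in 127 cells of cluster 0 (75.6%) and in 67 of cluster 1 (70.5%), although epithelium is known to lack it.

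Of the marker genes by which the cluster is known, Wt1 and Notch2 were carried by most of its cells. Wt1 had no UMI in 50 cells of cluster 0, 1 in 62, 2 in 30 and 3 or more in 26, whereas in cluster 1 it had none in 64 cells and 3 or more in 4. Its level was 1.53 (1.33 to 1.74) against 0.679 (0.495 to 0.909), a ratio of 2.25 (1.63 to 3.17). The overlapping antisense gene Wt1os, counted as a gene of its own, had 20 UMI in cluster 0 and 1 in cluster 1 (ratio 9.07, 1.45 to 376.0). Whether the counting used strand is not given in the sources used here. Notch2, a receptor gene of the Notch pathway (GRCm38 chromosome 3, 98013527 to 98150361, plus strand), was found in 110 cells of cluster 0 (65.5%) and 40 of cluster 1 (42.1%), with up to 23 UMI in a cell against up to 5. The ratio of its levels was 2.61 (1.996 to 3.46). These broad genes had only a small part of their UMI in a few cells: the 3 highest cells held 8.97% of the Wt1 and 14.9% of the Notch2 UMI of cluster 0.

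Foxj1, Shisa8, Myb and Deup1 were carried by fewer cells. Foxj1, the main regulator of motile cilia, had a UMI in 54 cells of cluster 0 (32.1%, 25.2 to 39.8) and 11 of cluster 1 (11.6%, 5.92 to 19.8), and 15 cells of cluster 0 but no cell of cluster 1 had 3 or more. Shisa8, a gene of a family of membrane proteins (chromosome 15, 82206168 to 82212815, minus strand), was found in 63 cells (37.5%) and 13 cells (13.7%), at a ratio of 5.13 (3.08 to 9.17). Myb (chromosome 10, 21124935 to 21160984, minus strand) was found in 30 and 8 cells. Deup1, which encodes a scaffold of centriole amplification (chromosome 9, 15559864 to 15627933, minus strand), was found in 17 cells of cluster 0, with up to 17 UMI, and in 1 cell of cluster 1, with 1 UMI. Thinned to 1300 UMI per cell, which left out no cell, the shares of cells with Foxj1 were 10.1% and 4.21%, with Shisa8 11.9% and 5.26%, with Wt1 22.6% and 15.8% and with Notch2 20.8% and 13.7%. At this depth the intervals of the clusters overlapped for each of these genes.

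**Figure D1:**
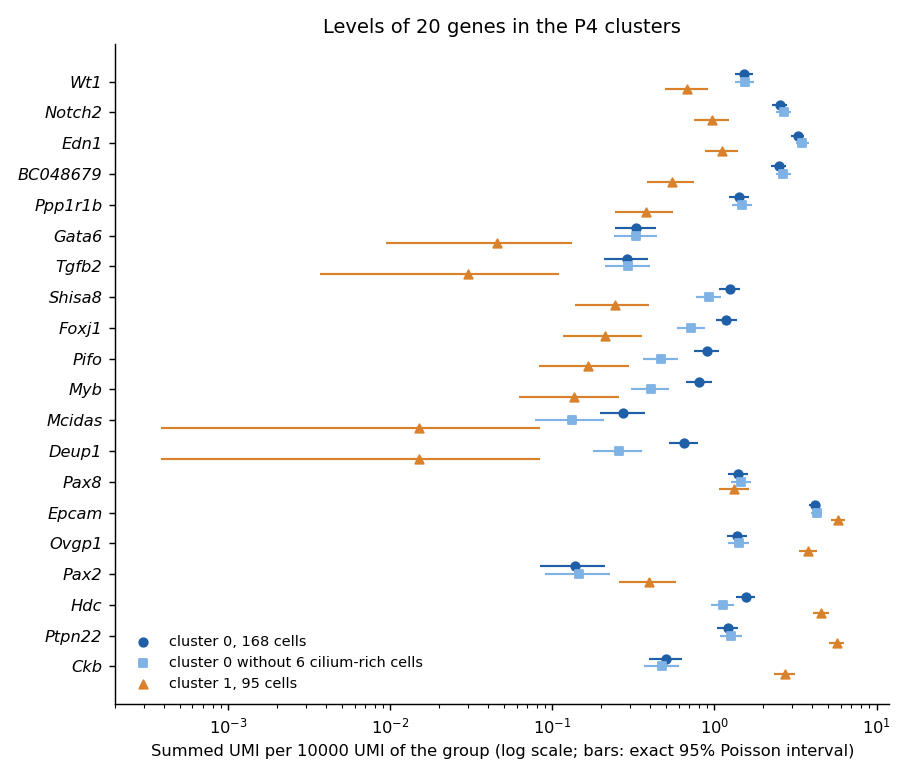
Summed UMI per 10000 UMI (log scale, with exact 95% Poisson intervals) of 20 genes in cluster 0, in cluster 0 without its 6 cells richest in cilium genes, and in cluster 1. Wt1 and Notch2 hardly move when the 6 cells are left out, Deup1 falls from 0.650 to 0.257, and Pax8 has the same level in all 3 groups within counting error.

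A list of 15 multiciliated markers separated a few cells from the rest of cluster 0. Per cell, the summed level of the list was 0 in 51 cells, had a median of 1.51 and reached 140 per 10000, against a highest value of 7.51 in cluster 1. The 6 cells above a limit of 30, called cilium-rich here, stood at 45.02, 48.7, 68.6, 75.5, 81.5 and 140, and the nearest cells below it at 25.7 and 25.1. They held 6.64% of the UMI of cluster 0, with a median of 18605.5 UMI per cell against 7777.5 in the other 162 cells, and a median of 20.8% of their UMI came from ribosomal protein genes against 29.5%. No doublet caller was run, and whether a droplet held more than 1 cell was not tested. Of the 120 genes called higher in cluster 0 (1.38% of genes measured, by the rule given below), 23 had at least 50% of their cluster 0 UMI in these 6 cells and 56 had under 10%, with a median of 11.2%.

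**Figure D2:**
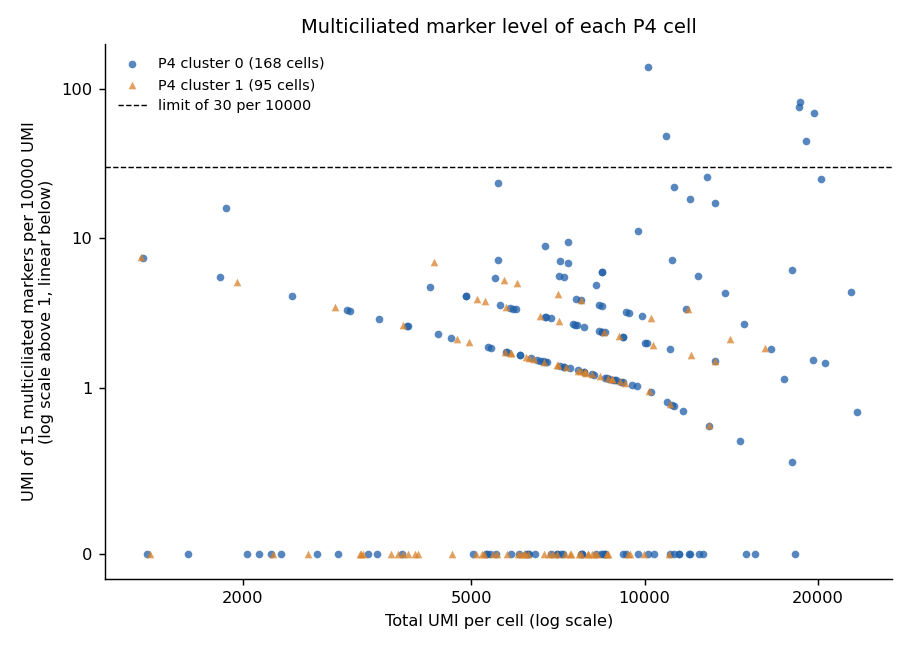
Summed UMI of 15 multiciliated markers per 10000 UMI of each P4 cell (log scale above 1, linear below) against the cell's total UMI (log scale). The 6 cluster 0 cells above the dashed limit of 30 reach 45.02 to 140, 8 more cluster 0 cells lie between 10 and 30, and no cluster 1 cell exceeds 7.51.

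Of the 6 cells, 5 carried genes of cells that are building cilia. Deup1 had 7 to 17 UMI in each of these 5, Ccno 6 to 11, Myb 9 to 14 and Shisa8 8 to 14. The sixth cell, the one at 140, had 1 UMI of Deup1 and none of Mcidas or Shisa8, but 21 UMI of Tmem212 and 28 of Ccdc153, genes known from cells that bear cilia, where the other 5 had 0 to 2 and 4 to 20. Ccdc153, Dynlrb2, Tmem212, Dnah5 and Foxj1 belong to the list whose sum chose these cells, so their levels describe the choice. Over the 6 cells, Ccdc153 stood at 8.04 against 0.0660 in the other 162 cells, Dynlrb2, a dynein light chain gene, at 12.8 against 0.345, and Dnah5, an axonemal motor gene, had 13 UMI against none. Tubulin genes, which are not in that list, were higher too: Tubb4b at 19.2 against 1.55 and Tuba1a at 17.9 against 1.38. Each of the 6 cells also had a UMI of Wt1, whose level, 1.44 (0.789 to 2.42), was close to that of the other cells of the cluster (1.53).

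These cells differed from the rest of cluster 0 in genes outside the cilium as well. The metallothionein genes Mt1 and Mt2, which encode metal-binding proteins, stood at 43.4 against 2.22 and at 13.2 against 0.748 respectively, and the chaperone gene Hsp90aa1 at 35.4 against 3.42. Hdc, which encodes the enzyme that makes histamine, was at 7.73 against 1.12 (ratio 6.89, 5.16 to 9.14). Edn1, which encodes the signalling peptide endothelin, had no UMI in any of the 6 cells and stood at 3.49 in the others. The exact interval of the ratio in favour of the others starts at 9.14. Notch2 stood at 0.412 against 2.67, a ratio of 6.47 (2.51 to 23.9) in favour of the other cells. BC048679 had 1 UMI in the 6 cells and 363 in the others.

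Among cell cycle genes the 6 cells showed an uneven pattern. Top2a, the topoisomerase that untangles chromosomes, had 21 UMI in 5 of the cells, at 2.16 against 0.814 in the other 162 (ratio 2.66, 1.58 to 4.27). Cdk1 was at 2.27 against 0.609 and Nek2, a centrosomal kinase gene, at 1.44 against 0.103. Mki67, a general proliferation marker, had 2 UMI in the 6 cells, at 0.206 against 0.286, and Nusap1, Cdca3, Plk1 and Aurkb, genes of mitosis, had none. In the other 162 cells these 4 stood at 0.565, 0.491, 0.0953 and 0.147, and 3 counts in the 6 cells would be 0.309. A lower level was therefore not detectable for Plk1 and Aurkb, nor for Mki67. Ccnd1, the cyclin gene of the G1 phase, was at 0.206 against 1.47, and Cdkn1a, an inhibitor of cyclin-dependent kinases, at 6.80 against 2.43. These genes were chosen after their values were seen.

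Below the limit, 8 cells of cluster 0 had 11.3 to 25.7 per 10000 of the markers. Members of the list chose these cells as well, and among them Foxj1 stood at 4.49, 1110017D15Rik at 3.92, Dynlrb2 at 3.23, Pifo at 3.11, Cfap126 at 1.38, Tekt1 at 1.27 and Rsph1 at 1.15. Of genes outside the list, Myb stood at 3.34, Deup1 at 3.34, Ccno at 1.96, Mcidas at 1.27 and Shisa8 at 4.72, against 0.204, 0.0470, 0.125, 0.0548 and 0.666 in the remaining cells. Cdc20b, which lies beside Mcidas and Ccno, was at 1.96 (1.14 to 3.14), against 1.34 (0.714 to 2.29) in the cilium-rich cells. Other cilium genes were hardly found: Ccdc153 and Tmem212 had 1 UMI each in the 8 cells, and Dnah5 and BC051019 none. Tubb4b was at 2.65 against 19.2 in the cilium-rich cells, and Hdc at 1.04 against 7.73, near the 1.13 of the remaining cells.

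The remaining 154 cells held some of these genes, in part no more than cluster 1. Foxj1 had a UMI in 41 of them, at 0.462, and in 11 of the 95 cells of cluster 1, at 0.211, and Shisa8 in 50, at 0.666, and in 13, at 0.241. Myb was found in 17 cells against 8 (0.204 and 0.136) and Ccno in 10 against 8 (0.125 and 0.136). Mcidas was found in 6 cells and Deup1 in 5, against 1 cell of cluster 1 each. Over the 162 cells below the limit, Foxj1 was found in 38 of 112 cells with a Wt1 UMI (33.9%) and in 10 of 50 without, with median totals of 7977 and 7143 UMI. Shisa8 was found in 28 of 48 Foxj1 cells (58.3%) and in 30 of 114 others (26.3%), with medians of 8432 and 7329.5. In cluster 1, 1 of 11 Foxj1 cells had Shisa8 (9.09%) and 12 of 84 others (14.3%). Deeper cells have a UMI of any gene more often, and that part was not tested.

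The sequences upstream of Mcidas, Ccno and Shisa8 are shown because these genes were high in both the 6 and the 8 cells and the sequences hold the letters GTTGCCA, the core of the X-box read by the RFX factors of cilium genes. Other genes high in these cells hold the letters too, among them Tekt1, and Deup1 and Pifo, where the match lies within the gene as annotated in GENCODE; they are not shown. Ccno (chromosome 13, 112987802 to 112990777, plus strand), Mcidas (112993845 to 113000394) and Cdc20b (113035111 to 113091195) lie in this order on the same strand. Each sequence ends at the base before the start of the gene as annotated in RefSeq and GENCODE, whichever is further upstream, and reads 5′ to 3′ on the gene's strand of GRCm38.p6 (RefSeq promoter table). Capitals mark the match. The regions are chr13:112993618-112993844 for Mcidas, chr13:112987552-112987801 for Ccno and chr15:82212816-82213065 for Shisa8.
Mcidas: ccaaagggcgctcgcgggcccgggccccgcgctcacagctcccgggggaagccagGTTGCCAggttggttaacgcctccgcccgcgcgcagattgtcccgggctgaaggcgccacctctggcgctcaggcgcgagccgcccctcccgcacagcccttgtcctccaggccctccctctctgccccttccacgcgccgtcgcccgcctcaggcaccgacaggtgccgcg
Ccno: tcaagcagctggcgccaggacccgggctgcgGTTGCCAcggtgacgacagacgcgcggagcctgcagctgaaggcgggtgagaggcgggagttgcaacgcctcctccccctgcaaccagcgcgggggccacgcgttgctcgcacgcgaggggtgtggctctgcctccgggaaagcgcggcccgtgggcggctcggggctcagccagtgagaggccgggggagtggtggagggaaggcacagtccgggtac
Shisa8: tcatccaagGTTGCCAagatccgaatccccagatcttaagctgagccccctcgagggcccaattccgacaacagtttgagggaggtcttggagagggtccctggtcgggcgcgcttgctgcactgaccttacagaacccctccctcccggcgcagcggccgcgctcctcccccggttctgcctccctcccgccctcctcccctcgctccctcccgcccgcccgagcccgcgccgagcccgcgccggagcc
The match starts 195, 219 and 241 bases upstream of the RefSeq start. In the 250 bases upstream of the start, on either strand, GTTGCCA was present in 8 of the 46 genes with an entry from the lists of multiciliated markers, fate regulators and centriole amplification (17.4%) and in 1133 of all 27025 genes (4.19%). TTCCCGC, the core of the sites of the E2F factors, was present in 6 of the 46 (13.0%) and in 4.38% of all, and TGTTTAC, a forkhead core, in none of the 46 and in 3.54% of all. None of the 3 motifs contains another. A match describes the letters of the window and is not a measured binding site.

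Across genes, cluster 0 and cluster 1 differed in few. A gene was measured if at least 10% of the cells of either cluster had a UMI, and called if its fold, with 0.1 per 10000 added to both levels, was at least 2. Of 8721 measured genes 120 were called higher in cluster 0 (1.38%) and 123 lower (1.41%), and the median log2 fold of all was 0.01. Without the 6 cilium-rich cells 80 of 8485 were higher (0.943%), of which 70 were among the 120, and 117 lower (1.38%), of which 103 were among the 123. Without the 7 cells rich in markers of other types 123 were higher and 125 lower, of which 111 and 115 were shared. All 7 measured multiciliated markers, of 15 in the list, were higher with all cells (median log2 fold 1.86) and 2 of 7, Foxj1 and Pifo, without the 6 (median 0.83). Tekt1, Rsph1, Pifo and Cfap126 reached 10% of cells in cluster 0 alone, like Mcidas, Ccno, Myb, Deup1 and Kif3a. The filter thus favoured their being higher, and these counts support nothing by themselves. Of 8 measured fate regulators 4, Mcidas, Ccno, Myb and Foxj1, were higher with all cells, and 2 of 6 without them (Myb and Foxj1). Deup1 alone of 14 measured centriole amplification genes was higher (median 0.59), and of 23 measured genes of intraflagellar transport, the traffic that builds cilia, Ift22 and Kif3a (median 0.30). Neither list had a called member without the 6 cells, but Deup1 then fell below the filter, with a UMI in 6.79% of cells. Its log2 fold without the 6 was still 1.63. Mcidas, of the fate regulators, fell below the filter in the same way (8.02% of cells, log2 fold 1.01). Among fate regulators that too few cells carried to be measured, Cdc20b had 35 UMI in 14 cells of cluster 0, Rfx2 16 in 14 and Trp73 15 in 12, and none of the 3 had a UMI in cluster 1.

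**Figure D3:**
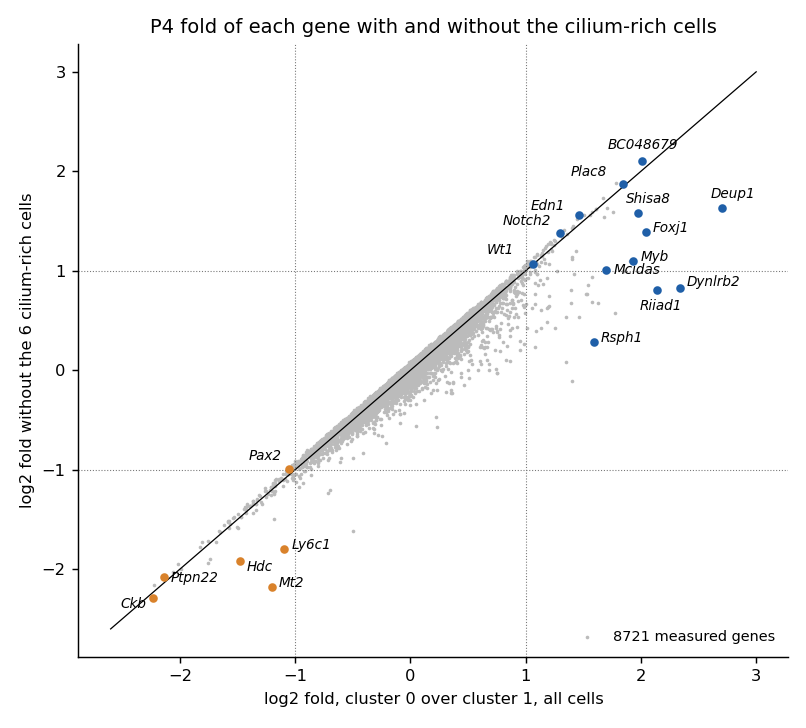
Log2 fold of cluster 0 over cluster 1 (0.1 per 10000 added) with all cells (horizontal) and without the 6 cilium-rich cells (vertical) for the 8721 genes measured with all cells. Cilium genes such as Deup1, Dynlrb2 and Rsph1 fall below the diagonal, BC048679, Edn1, Notch2 and Wt1 stay on or above it, and Mt2, Hdc and Ly6c1 move further down.

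Without the cilium-rich cells, the 12 genes with the largest fold included Shisa8 but none of the multiciliated marker list. Plac8, Hp, Wfdc18, Alox15, Gata6 and Tgfb2 reached 10% of cells in cluster 0 alone, so that the filter favoured their being higher. BC048679 had 363 UMI in 79 of the 162 cells, with up to 36 in a cell, and 36 UMI in 28 cells of cluster 1, with at most 3 (2.66 against 0.543, ratio 4.90, 3.47 to 7.11). Plac8 stood at 0.763 against 0.136 (ratio 5.61, 2.85 to 12.6), but 34.9% of its cluster 0 UMI came from 3 cells. Ppp1r1b, which encodes a phosphatase inhibitor known from neurons, was spread more widely, in 93 of 162 cells against 19 of 95, at a ratio of 3.93 (2.58 to 6.21). Hp, the gene of the haemoglobin-binding protein haptoglobin, was found in 53 and 6 cells, and Tst, the gene of a mitochondrial sulfur transferase, in 44.6% of all cluster 0 cells against 10.5%. Cadm1, a cell adhesion gene, was at 0.792 against 0.196, and Wfdc18, which encodes a secreted protein of the whey acidic family, at 0.579 against 0.121 (ratio 4.80, 2.32 to 11.5). Alox15, the gene of a lipoxygenase, had 58 UMI in cluster 0 and 5 in cluster 1.

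Edn1 had the most UMI of these genes. It had no UMI in 76 of the 162 cells, 1 in 28, 2 in 13 and 3 or more in 45, with up to 34 in a cell. In cluster 1 it was at 0 in 66 of 95 cells and reached 19, and the levels were 3.49 and 1.12, a ratio of 3.13 (2.44 to 4.05). Edn1 was found in 70 of 112 cells with Wt1 (62.5%) and in 16 of 50 without (32.0%). In cluster 1 it was found in 9 of 31 cells with Wt1 (29.0%) and in 20 of 64 without (31.2%). Median totals with and without Wt1 were 7977 and 7143 UMI in the 162 cells and 7892 and 6145.5 in cluster 1. The part of depth was not tested. For Foxj1 in cluster 0 the shares lay closer: 27 of 48 Foxj1 cells (56.2%) and 59 of 114 others (51.8%) had Edn1. Of the 79 cells with BC048679, 43 had Edn1 (54.4%), and of the 83 without, 43 (51.8%).

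Among signalling genes, few members of each list differed. Of all measured genes, 1.38% were called higher and 1.41% lower, and the list counts are not read as results about a pathway. Tgfb2, Wnt7b and Aldh1a3 reached 10% of cells in cluster 0 alone, so that the filter favoured their being higher. Crabp2 reached it in cluster 1 alone, which favoured its being lower. Notch2 was the one gene called of 14 measured in the Notch pathway (median log2 fold 0.07, without the 6 cells 12 measured and median -0.02). The ligand gene Jag1 stood at 0.753 against 0.664, the receptor gene Notch1 at 0.164 against 0.377, and the target gene Hes1 at 4.59 against 6.63. Tgfb2, a ligand gene of the Tgfb pathway, had 42 UMI in 34 cells of cluster 0 and 2 UMI in cluster 1 (ratio 9.53, 2.48 to 81.2) and was the only one of 23 measured genes called in its list. In the Wnt pathway, 3 of 29 measured genes were called. Wnt7b had 24 UMI against 2 (ratio 5.44, 1.35 to 47.5), Lgr4, a receptor gene for R-spondins, stood at 1.05 against 0.423, and Wnt7a, a ligand gene that patterns the female tract, was lower, at 0.151 against 0.574. In the retinoic acid list Aldh1a3, which makes retinoic acid, stood at 0.335 against 0.0755 (ratio 4.45, 1.78 to 14.3), and Crabp2, which carries it in the cell, at 0.103 against 0.423, with 11 other measured genes within 2-fold. Fgf1, a growth factor gene, was lower (0.233 against 0.649) and the only one called of 13 measured Fgf and Egf pathway genes (median -0.47). None of the 4 measured Hedgehog genes, 8 steroid hormone genes or 22 guidance genes was called.

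Few transcription factors of the tract were called. Of 28 measured regional factors Wt1, Gata6 and Nr2f1 were higher and Pax2 lower (median log2 fold 0.08). Gata6 and Nr2f1 passed the filter on the share of cells in cluster 0 alone, so that the filter favoured their being higher. Among all measured genes 1.38% were called higher and 1.41% lower, and the counts are not read as a result about the list. Gata6 had 48 UMI in 37 cells of cluster 0 and 3 UMI in 3 cells of cluster 1 (ratio 7.26, 2.34 to 36.4), and Nr2f1 stood at 0.294 against 0.0755 (ratio 3.90, 1.55 to 12.6). Pax2 had a single UMI in each of 20 cells of cluster 0 and 26 UMI in 24 cells of cluster 1 (ratio of cluster 1 over 0 2.87, 1.54 to 5.41), and without the 6 cells its log2 fold, at -0.997, just missed the limit of 2-fold. Pax8 did not differ beyond its counting interval (1.40 against 1.33, ratio 1.05, 0.815 to 1.37), nor did Emx2 (0.808 against 0.890).

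Of the Hox genes that were called, those of the Hoxc group were higher and those of the Hoxb group lower. Hoxc5 passed the filter on the share of cells in cluster 0 alone, which favoured its being higher. Hoxb8 passed it in cluster 1 alone, which favoured its being lower. Among all measured genes 1.38% were called higher and 1.41% lower, and the counts are not read as a result about these groups. Of 13 measured, Hoxc4 (0.513 against 0.196) and Hoxc5 (36 UMI against 2) were higher, and Hoxb6 (0.397 against 0.936), Hoxb7 (0.274 against 0.649) and Hoxb8 (3 UMI against 17) lower. The ratio of Hoxc5 was 8.17 (2.10 to 70.0), and that of Hoxb8 in favour of cluster 1 was 12.5 (3.61 to 66.5). Hoxd8 (0.288 against 0.121) and Hoxb4 (0.260 against 0.498) were within 2-fold on the scale used for calling. Neighbouring Hox genes can overlap in their transcripts, and how reads were assigned there is not given in the sources used here. Without the 6 cells only Hoxb8 stayed below the limit among the lower genes, with Hoxb6 and Hoxb7 at log2 folds of -0.9996 and -0.98.

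**Figure D4:**
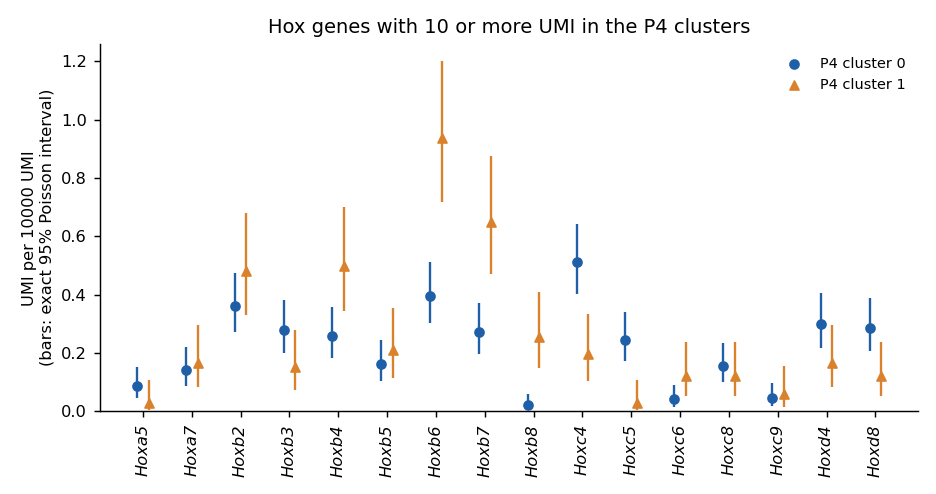
UMI per 10000 UMI (exact 95% Poisson intervals) of the 16 Hox genes with at least 10 UMI in the P4 cells. Hoxb6, Hoxb7 and Hoxb8 are higher in cluster 1 and Hoxc4 and Hoxc5 in cluster 0, with intervals that do not overlap.

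The genes lower in cluster 0 were also found in fewer of its cells. Ptpn22, a phosphatase gene best known from lymphocytes, had no UMI in 86 of 168 cells of cluster 0 and in 11 of 95 cells of cluster 1, with medians of 0 and 3 UMI. Its levels were 1.21 (1.04 to 1.40) and 5.67 (5.12 to 6.28). Ckb, the brain-type creatine kinase gene, was found in 42 cells of cluster 0 and 64 of cluster 1 (67.4%), at 0.4998 against 2.72, a ratio of cluster 1 over 0 of 5.44 (4.12 to 7.24). Lgi1 had at most 2 UMI in a cell of cluster 0 and was found in 19 cells against 48 of cluster 1. Car2, a carbonic anhydrase gene, was found in 56 and 71 cells, Calb1, which encodes a calcium-binding protein, in 40 and 54, and the neurotrophin gene Ntf3 stood at 0.0958 against 0.679. Hdc had a UMI in 77 of the 162 cells without the cilium-rich ones and in 87 of 95 cells of cluster 1, so that its ratio in favour of cluster 1 was 2.90 with all cells and 4.04 (3.31 to 4.94) without those 6. For Mt2 this ratio was 2.38 and 5.004, and for Ly6c1, a surface protein gene, 2.49 and 5.10.

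Secreted products were called in both directions. Their summed level was lower in cluster 0, at 28.98 (28.1 to 29.9) against 40.99 (39.5 to 42.6). Of 24 measured, Wfdc18 and Agr2 were higher in cluster 0, and Ovgp1, Wfdc2 and Serpina1e lower (median log2 fold 0.22). Wfdc18 and Agr2 passed the filter on the share of cells in cluster 0 alone, which favoured their being higher. Without the 6 cilium-rich cells Agr2, at a log2 fold of 0.997, just missed the limit. Ovgp1, which encodes the glycoprotein that coats the egg, was found in 68 cells of cluster 0 (40.5%) and 64 of cluster 1 (67.4%), with up to 16 and 17 UMI in a cell, at 1.38 against 3.77. Wfdc2 had a UMI in 160 of 168 cells and in all 95, with medians of 6 and 13 UMI. The summed level of the separate list of secretory markers was 20.1 (19.4 to 20.9) against 35.03 (33.6 to 36.5). Of 9 measured in that list, Ovgp1 and Wfdc2 were lower and none was higher, and 5 had log2 folds above 0. Of 24 measured adhesion and junction genes Ncam1, Cldn8 and Cldn10 were lower and none higher. Cldn8 passed the filter in cluster 1 alone, which favoured its being lower. Among all measured genes 1.38% were called higher and 1.41% lower, and the list counts are not read as results. Ccnd2, a cyclin gene, was lower in cluster 0 (1.59 against 4.50, ratio of cluster 1 over 0 2.83, 2.38 to 3.38) and was the only one of 12 measured cyclins and inhibitors called. None of 26 measured S phase genes and 24 G2 and M phase genes was called, and the median log2 fold of the latter was 0.44 with all cells and 0.21 without the 6.

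Genes of the stress of dissociation stood lower in cluster 0. Of 17 measured genes of that list Nr4a1, Hspb1 and Socs3 were called lower in cluster 0 and none higher. Over all measured genes 1.41% were called lower and 1.38% higher. In the list, 3 genes had log2 folds above 0 and the median was -0.57. The summed level of the list was 89.6 (88.1 to 91.1) in cluster 0 and 125.5 (122.8 to 128.2) in cluster 1. Fos stood at 11.9 against 15.1, Atf3 at 5.05 against 8.38 and Jun at 9.52 against 9.80. The part of handling in the differences between the clusters was not tested.

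In the authors' table of both ages merged, 148 of the 168 cells had a cluster number. Merged cluster 1 held 137 of them (92.6%, 87.1 to 96.2) and merged cluster 0 held 11 (7.43%, 3.77 to 12.9), among them all 6 cilium-rich cells. Merged cluster 0 also held 178 of 182 merged cells of adult cluster 1, the multiciliated adult cluster, in which Foxj1 stood at 8.24. The other 5 P4 cells placed there were of low depth (1608 to 5565 UMI, median 2441, against a median of 8320 for cells of merged cluster 1), and 1 of them had a Foxj1 UMI. Of the 8 cells between 10 and 30 per 10000, 2 lay in merged cluster 0 and 6 in merged cluster 1. For P4 cluster 1 the placement was 88 cells in merged cluster 1 and 3 in merged cluster 0.

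The genes that set cluster 0 apart at P4 were then read in the adult library, whose cells had no part in forming the P4 clusters. The 3 adult comparisons share clusters with one another, and are given without a test. Between adult clusters 1 and 3, both multiciliated by Foxj1 (8.24 and 5.13), 9.15% of 5367 measured genes were called higher in cluster 1 and 11.6% lower. Of the 62 measured genes lower in P4 cluster 0, 40 were lower in adult cluster 1 than in 3 (64.5%) and none was higher, and these 40 made up 6.40% of all lower genes. The 40 included Ptpn22 (0.619 against 8.77, ratio of cluster 3 over 1 14.2, 9.62 to 21.3), Ccnd2 (0.292 against 1.57), Hoxb6, Hoxb7, Hoxb8, Ovgp1 and, of the stress list, 3 genes. Of the 66 measured genes higher in P4 cluster 0, 15 were higher in adult cluster 1 (22.7%, or 3.05% of all higher genes) and 3 lower. The 15 included Wt1 (3.94 against 1.41, ratio 2.80, 1.71 to 4.89), Gata6 (21 UMI against 0, ratio interval from 1.08), Nr2f1 and Cadm1. The 3 were Hp, Alox15 and Edn1. Without the cilium-rich cells 7 of 33 were higher (21.2%) and 4 lower (12.1%).

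A comparison of adult clusters without many cilium genes gave a like count. Adult cluster 0 (130 cells) was set against the 18 cells of adult cluster 5 with fewer than 10 UMI of smooth muscle genes, where 18.9% of 5256 measured genes were higher and 16.6% lower. Of 71 measured genes lower in P4 cluster 0, 42 were lower in adult cluster 0 (59.2%) and 8 higher. Car2 (0.377 against 2.06), Hdc (0.337 against 3.75), Calb1 (1.85 against 11.8), Cldn10 and Pax2 were among the 42, whereas Ptpn22 was not (2.80 against 1.88). Of 56 measured genes higher in P4 cluster 0, 22 were higher there (39.3%) and 7 lower. Wt1 (3.91 against 0.7501, ratio 5.21, 2.003 to 19.3), Hp, Alox15, Shisa8 (2.52 against 0.7501), Hoxc4 and Gata6 were among the 22, and BC048679 among the 7 (0.536 against 3.19). Without the cilium-rich cells 46 of 68 lower genes and 19 of 44 higher genes went the same way.

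Set between the adult multiciliated cluster 1 and adult cluster 0, the P4 genes depended on the 6 cells. There 23.1% of 5382 measured genes were higher in cluster 1 and 12.7% lower. With all cells, 44 of 78 measured genes higher in P4 cluster 0 were higher in the multiciliated cluster (56.4%, median log2 fold 1.26) and 18 lower, and without the 6 cells 11 of 47 were higher (23.4%) and 21 lower (median -0.87). Notch2 (0.946 against 2.92), Shisa8 (0.568 against 2.52) and Edn1 were lower in the adult multiciliated cluster, while Foxj1, Myb, Pifo and Cadm1 were higher. Of 51 measured genes lower in P4 cluster 0, 25 were lower in the adult multiciliated cluster (49.0%) and 10 higher (19.6%). Among the 10, Ckb stood at 16.3 in adult cluster 1 and 0.258 in adult cluster 0, and Hdc at 9.41 and 0.337, the opposite of their order at P4.

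**Figure D5:**
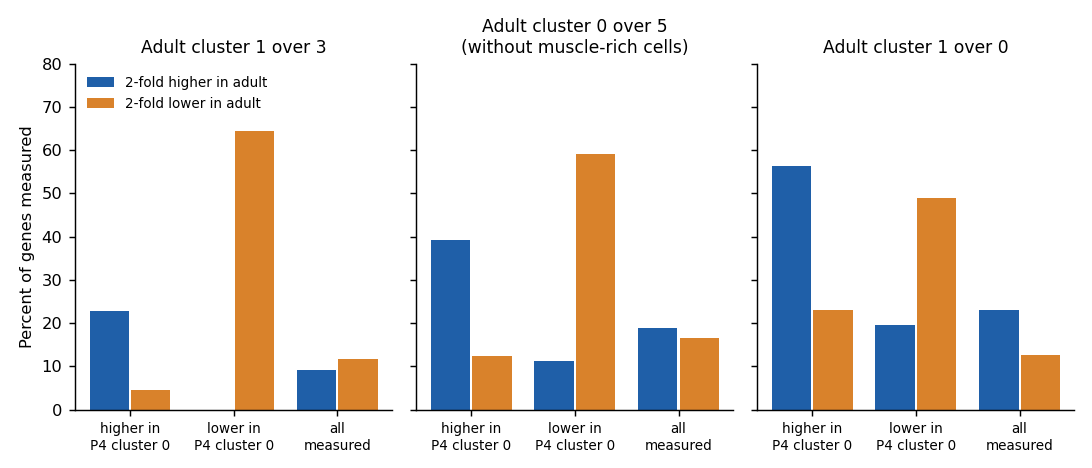
Percent of measured genes at least 2-fold higher or lower in 3 comparisons of adult clusters, for the genes higher and lower in P4 cluster 0 (all cells) and for all measured genes. Of the genes lower in P4 cluster 0, 64.5% are lower in adult cluster 1 than in 3, where 11.6% of all measured genes are.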

How the data were processed

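Single-cell RNA-seq was analysed from 1 P4 and 1 adult library. The authors deposited tables of raw UMI counts per gene and cell and a cluster number for each cell, and Cell Ranger, Seurat 2.3.4 and mm10 are named in the submitters' processing notes. How reads were assigned to genes that overlap is not given in the sources used here. Levels are summed counts per 10000 UMI of the group, with exact 95% Poisson intervals for levels, exact conditional intervals for ratios and Clopper-Pearson intervals for shares (Python 3.11.15, scipy 1.17.1). The script was tested on simulated data. With 1 library for each age, no difference was given a p-value. The 2 libraries share no barcode in the files used.

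The 807 adult columns hold 406 distinct barcodes, and the first column of each was kept. The merged table served for cluster numbers; its 239 P4 columns equal those of the P4 table over shared genes. The members and the 35 gene lists were chosen with earlier results of these data known. Named genes were the 6 markers of the cluster with Pax2, Pax8, Epcam and Ovgp1, the 15 of largest fold per direction among measured genes, 12 per direction without the cilium-rich cells (with at least 20 UMI on the higher side and no ribosomal protein, mitochondrial, Gm or Rik genes), and list members at least 2-fold apart; not every such gene is described. Other genes in the text were chosen after their values were seen. Gene positions (GRCm38) come from GENCODE M21 by symbol and promoters from RefSeq. Other limits, filters, pseudocounts, totals and thinning were tried as alternatives. No doublet caller was run.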

Additional observations from a re-analysis of the deposited data

How the results depend on the processing

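With all cells 120 genes were at least 2-fold higher and 123 lower in P4 cluster 0. A pseudocount of 0.5 left 15 and 21 genes, and a filter of 25% of cells 38 and 72, since each lets fewer low genes pass. Without the 95 cells that had a UMI of Mki67 or Top2a the counts were 229 and 235, and with totals that leave out ribosomal protein and mitochondrial genes 203 were higher; the cause was not tested. Limits of 20 and 40 for cilium-rich cells, means over cells, no filter, thinning, and leaving out the deepest cells or, added after the data were seen, the 7 cells rich in other markers or the cells above a limit of 10, gave 80 to 177 higher and 117 to 167 lower genes. After thinning, 12 of the 84 higher genes were among the 120.

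The share of cluster 0 cells in merged cluster 0 fell to 3.52% and that in merged cluster 1 rose to 96.5% without the cilium-rich cells. Genes higher in P4 cluster 0 and in adult cluster 1 over 3 numbered 15, 7 without those cells and 5 with a pseudocount of 0.5. For adult cluster 0 over 5 the latter gave 12 in place of 22. For adult cluster 1 over 0 leaving out the cells gave 11 in place of 44 higher genes, and the pseudocount 13 in place of 25 lower ones. Of 78 genes, 3 changed direction when all 14 cells above a limit of 10 were left out: the log2 folds of Dynlrb2, Rsph1 and Ccno were then -0.012, -0.058 and -0.066. No paired analysis was possible because each age has 1 library. Depth limits all genes with few counts: 3 counts correspond to 0.0453 per 10000 in cluster 1.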
